A study of Mus musculus with 8 samples.

Results

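The amino acid transporters described here are the mouse genes of the Slc1, Slc3, Slc6, Slc7, Slc36, Slc38 and Slc43 families of solute carriers. Every non-control probe whose gene name on the array fell in one of these families was taken, except Slc7a11, the light chain of the cystine and glutamate exchanger, which was kept for a list of related carriers. This gave 78 of the 39429 non-control probes, for 61 genes. One of the 61, Slc7a6os, is matched by its name but encodes no transporter and is named apart, which leaves 60 transporter genes. A gene was tested if in 1 or more of the groups a probe was marked well above background on each of the 2 arrays, and 26 of the 61 genes passed (of 16153 genes tested in all).

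The cells were C10, which are mouse pre-B cells made from the HAFTL line with C/EBPα under inducible control. C/EBPα is a transcription factor that drives B cell precursors towards macrophage-like cells. Groups, 4 in all, were a line labelled Tet2 knockdown (with a short hairpin RNA) after 24 h of induction, a control line (with a control hairpin) after 24 h of induction, the line labelled Tet2 knockdown at 0 h, and the control line at 0 h. Induction added estradiol (100 nM), IL-3 (10 ng/ml) and M-CSF (10 ng/ml) together, so the 24 h and 0 h groups differ by the time and by all 3 agents at once. All groups were kept in RPMI medium with 10% serum, 20 mM glutamine, 20 µM 2-mercaptoethanol and 1 µg/ml puromycin. Each group is 1 line measured on 2 arrays, which the study calls technical duplicates, so the p-values measure the spread between arrays and not between cultures.

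Amino acids are charged or polar and cross membranes through carriers. At the plasma membrane, sodium-coupled carriers concentrate small neutral amino acids such as glutamine and alanine, and exchangers such as the heterodimers of the heavy chain CD98 then trade these for large neutral or cationic ones. In lysosomes, other carriers release the products of protein breakdown, and some act as sensors for the growth kinase complex mTORC1. Macrophages are known for uptake and breakdown of engulfed protein and for a demand for arginine, and dividing cells for uptake of leucine and glutamine.

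Levels are given as the log2 processed signal relative to the 75th percentile of the same array, so 0 is the 75th percentile, and levels of different genes are not set against each other. A gene was called at 2-fold or more with a limma adjusted p, taken over the 16153 genes, under 0.05. Values after ± are standard errors of the log2 difference (n = 2 arrays per group). In bulk RNA, a lower share of cells with a transcript and less of it per cell cannot be told apart.

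Across genes, the 2 arrays of a group gave a Pearson r of 0.992 to 0.994. Tet2 itself stood at 92.8% of the control line's level in the line labelled Tet2 knockdown at 0 h, which did not pass the test (adjusted p = 0.53), so this line is called by its label throughout. All 10 pre-B markers stood above background in every group, and of the 10 macrophage markers 9 did so at 24 h and 8 at 0 h in each line. On induction, 7 of the 9 macrophage markers tested were called higher in both lines, with a median log2 change of 7.04 in the knockdown-labelled line and 7.06 in the control line. Of the 10 pre-B markers 4 were called lower in the knockdown-labelled line and 6 in the control line, and none was called higher. Of the T cell, erythroid and fibroblast markers, Cd4 and Pdgfrb were the ones called, both higher, and at 0 h none of the 5 fibroblast markers stood above background on both arrays. The part of this cell type switch in the transporter changes was not tested.

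Of the 61 genes 26 passed the background filter, where 16153 of all 31751 genes named on the array passed. Of the 35 genes that did not pass the filter, 28 had no array well above background and 7 had between 1 and 4 such arrays. Among them were Slc1a7 with 4 arrays, Slc6a13 with 2, and Slc7a12, Slc36a3, Slc36a4 and Slc38a11 with 1 each. The glutamate transporters Slc1a1, Slc1a2, Slc1a3 and Slc1a6 had none, and neither had the monoamine transporters Slc6a2, Slc6a3 and Slc6a4, the heavy chain Slc3a1 with its light chain Slc7a9, the light chain Slc7a8 or the cationic carrier Slc7a2, known in mouse for arginine uptake of activated macrophages. The Slc43 family was measured in full (3 of 3 genes), against 7 of 11 Slc38 genes, 6 of 19 Slc6 genes, 5 of 14 Slc7 genes, 2 of 7 Slc1 genes, 1 of 2 Slc3 genes and 1 of 4 Slc36 genes. A gene below background is not shown to be unexpressed.

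**Figure D1:**
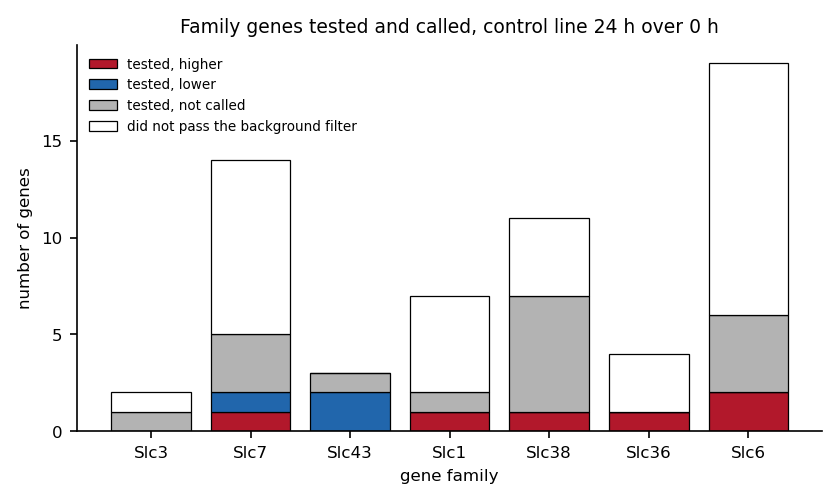
Bars give the number of genes in each transporter family, split into genes called higher, called lower, tested and not called (control line, 24 h over 0 h) and genes that did not pass the background filter, with Slc7a6os left out. The Slc6 family has 13 genes that were not tested, and the Slc43 family has none.

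On induction, 10 transporter genes were called in at least 1 line. In the knockdown-labelled line 7 of the 26 genes tested rose and 3 fell, against a background of 16.7% of all genes called higher and 15.4% called lower. The control line had 6 that rose and 3 that fell, against a background of 14.2% and 13.1%. Slc6a12 passed the background filter through its 24 h arrays alone, and over the other 25 genes, all above background in every group, 6 rose in the knockdown-labelled line and 5 in the control line, with 3 that fell in each. The genes called higher in both lines were Slc1a4, Slc6a6, Slc6a12, Slc7a5, Slc36a1 and Slc38a8. Slc38a10 was called higher in the knockdown-labelled line alone, and Slc7a6, Slc43a1 and Slc43a3 were called lower in both. The median log2 change over the 26 genes was 0.66 in the knockdown-labelled line and 0.47 in the control line, where the median over all genes tested was 0.14 and 0. Without Slc6a12 it was 0.63 in the knockdown-labelled line and 0.46 in the control line. Without a minimum fold, 13 of the 26 genes were higher and 7 lower (Slc7a6os, no transporter, among the 7) at an adjusted p under 0.05 in the knockdown-labelled line, where 36.2% and 32.0% of all genes were. The counts in the control line were 13 higher and 6 lower (Slc7a6os among the 6), where 30.7% and 31.1% of all genes were. Every call had the same sign on both slides. The calls came from the same arrays, so this agreement and any lack of overlap between arrays of a called gene are no separate support.

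**Figure D2:**
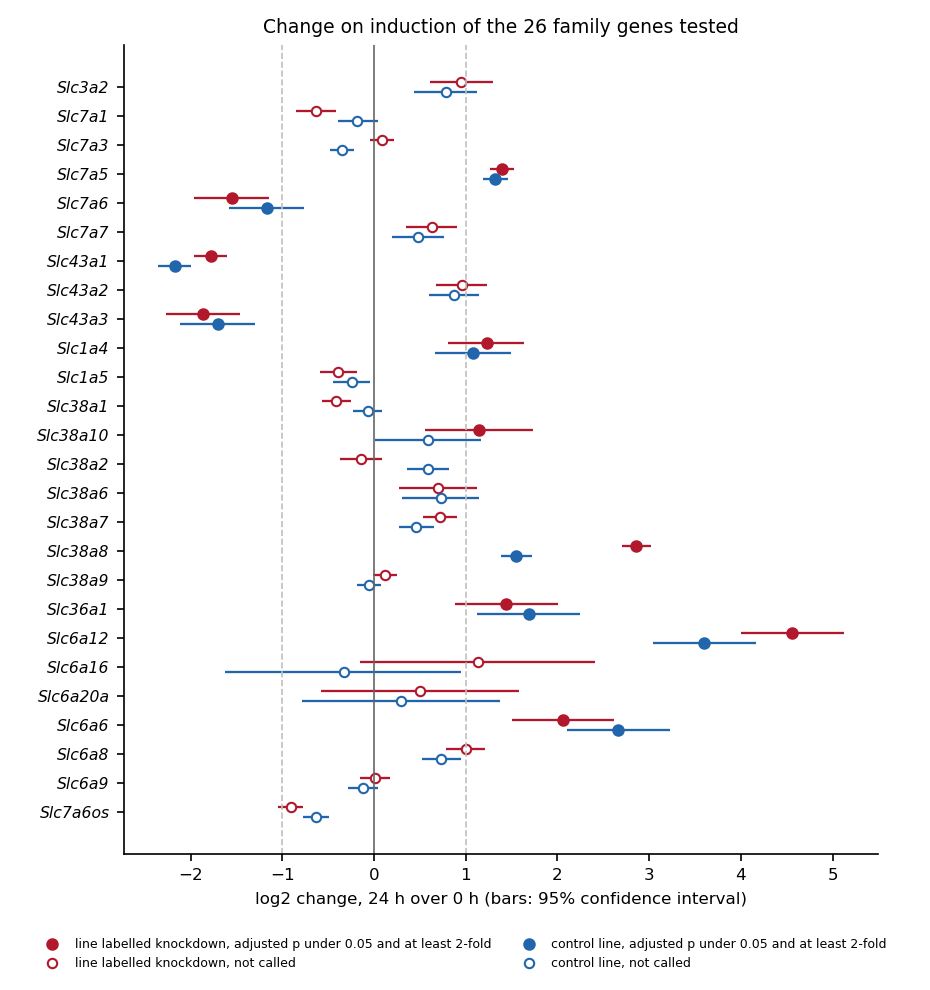
Log2 change, 24 h over 0 h, of the 26 genes tested, with 95% confidence intervals, for the line labelled knockdown (red, above) and the control line (blue, below). Filled points passed an adjusted p under 0.05 and at least 2-fold, and for Slc6a12 the plotted value is fitted against 0 h signals below background.

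Among the carriers of large neutral amino acids, the leucine exchanger rose and a leucine uniporter fell. Slc7a5 encodes LAT1, the light chain that exchanges leucine and other large neutral amino acids. It had levels of 4.24 and 4.22 in the knockdown-labelled line at 24 h, against 2.82 and 2.85 at 0 h. Its control levels were 4.11 and 4.06 at 24 h, against 2.74 and 2.77 at 0 h. The 24 h arrays of each line stood above all 0 h arrays with no overlap. This is a 2.63-fold rise in the knockdown-labelled line (log2 change 1.40 ± 0.05, limma adjusted p = 8.2e-06) and a 2.5-fold rise in the control line (1.32 ± 0.05, adjusted p = 1.2e-05). The probe used lies at chr8:124405136-124405195 in build mm9. A further probe of the gene, at chr8:124430996-124431055, gave a smaller log2 change of 0.66 ± 0.09 (adjusted p = 0.0011) in the knockdown-labelled line and 0.15 ± 0.09 (adjusted p = 0.19) in the control line, and the mean of both probes was not called in the control line (0.74).

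Slc3a2 encodes CD98, the heavy chain that LAT1 and the y+LAT light chains need to reach the membrane. Its levels were 6.44 and 6.23 in the knockdown-labelled line at 24 h, against 5.52 and 5.24 at 0 h. They were 6.24 and 6.05 in the control line at 24 h, against 5.45 and 5.29 at 0 h. The groups did not overlap within either line, and the log2 change of 0.95 ± 0.14 (adjusted p = 0.0015) in the knockdown-labelled line and 0.78 ± 0.14 (adjusted p = 0.0039) in the control line stayed under 2-fold. In the knockdown-labelled line it passed 2-fold without 0 h array 1 (1.09) or without 24 h array 2 (1.06).

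The y+LAT light chains exchange cationic amino acids such as arginine for neutral ones with sodium, and the pair measured here gave changes of opposite sign. Slc7a6 (y+LAT2) had levels of -2.74 and -2.33 in the knockdown-labelled line at 24 h, against -1.05 and -0.92 at 0 h. Control levels of Slc7a6 were -2.74 and -2.51 at 24 h, against -1.54 and -1.36 at 0 h. It fell to 34.2% of its 0 h level in the knockdown-labelled line (log2 change -1.55 ± 0.16, adjusted p = 3.9e-04) and to 44.3% in the control line (-1.17 ± 0.16, adjusted p = 0.0015). Its change in the control line was under 2-fold with normexp background correction (-0.89) and in the authors' deposited table (-0.92). Slc7a7 (y+LAT1), mutated in human lysinuric protein intolerance, had 2.38 and 2.28 in the knockdown-labelled line at 24 h, against 1.80 and 1.60 at 0 h. Its control levels were 2.57 and 2.50 at 24 h, against 2.17 and 1.94 at 0 h. It was higher at 24 h at under 2-fold in the knockdown-labelled line (0.63 ± 0.11, adjusted p = 0.0036) and in the control line (0.48 ± 0.11, adjusted p = 0.012).

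Slc7a6os, the gene beside Slc7a6 on the opposite strand, had lower levels at 24 h at under 2-fold. The log2 change was -0.91 ± 0.06 (adjusted p = 4.3e-05) in the knockdown-labelled line and -0.63 ± 0.06 (adjusted p = 2.1e-04) in the control line. In the RefSeq annotation the next gene after Slc7a6os is Prmt7, which was called lower in both lines (-1.66 in the knockdown-labelled line and -1.39 in the control line), while Pla2g15 on the other side of Slc7a6 was called higher in the knockdown-labelled line (1.24) and not called in the control line (0.46).

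The Slc43 family held the transporters with the deepest falls among those tested. Slc43a1 encodes LAT3, a sodium-independent carrier of branched-chain and other large neutral amino acids. Its levels were 0.63 and 0.67 in the knockdown-labelled line at 24 h, against 2.48 and 2.38 at 0 h. They were 0.17 and 0.09 in the control line at 24 h, against 2.35 and 2.25 at 0 h. The 0 h arrays of both lines stood above all 24 h arrays. Slc43a1 fell to 29.1% of its 0 h level in the knockdown-labelled line (log2 change -1.78 ± 0.07, adjusted p = 9.4e-06) and to 22.2% in the control line (-2.17 ± 0.07, adjusted p = 5.7e-06).

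Slc43a3, known in human cells as a carrier of purine nucleobases rather than amino acids, had levels of 1.50 and 1.28 in the knockdown-labelled line at 24 h, against 3.48 and 3.02 at 0 h. The control line had 1.50 and 1.48 at 24 h, against 3.21 and 3.17 at 0 h. Again no 24 h array reached a 0 h array. It fell to 27.5% of its 0 h level in the knockdown-labelled line (-1.86 ± 0.16, adjusted p = 1.7e-04) and to 30.7% in the control line (-1.70 ± 0.16, adjusted p = 2.9e-04). Slc43a2 encodes LAT4, a carrier of the same kind as LAT3, and its levels moved the other way. They were 1.12 and 1.19 in the knockdown-labelled line at 24 h, against 0.16 and 0.24 at 0 h, and 1.07 and 1.18 in the control line at 24 h, against 0.11 and 0.39 at 0 h. The groups did not overlap, and the log2 change was just under 2-fold in the knockdown-labelled line (0.96 ± 0.11, adjusted p = 5.8e-04) and in the control line (0.87 ± 0.11, adjusted p = 9.5e-04).

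Slc43a1 and Slc43a3 are near neighbours on chromosome 2. Their probes lie at chr2:84703578-84703637 and chr2:84797987-84798046 in build mm9. Rtn4rl2, which lies between them in the RefSeq order, was not called (log2 change -0.67 in the knockdown-labelled line and -0.83 in the control line). Timm10 on the other side of Slc43a1 was called lower in the knockdown-labelled line (-1.22) and not called in the control line (-0.97). The RefSeq promoter of Slc43a1 (build GRCm38.p6, chr2:84840073-84840372, plus strand, from 250 bases before to 50 bases after the start) is shown because it belongs to the transporter with the deepest fall in the control line. Capitals mark the E-box CACGTG at base -64 and the PU.1 core GAGGAAG at base -2.
Slc43a1 promoter: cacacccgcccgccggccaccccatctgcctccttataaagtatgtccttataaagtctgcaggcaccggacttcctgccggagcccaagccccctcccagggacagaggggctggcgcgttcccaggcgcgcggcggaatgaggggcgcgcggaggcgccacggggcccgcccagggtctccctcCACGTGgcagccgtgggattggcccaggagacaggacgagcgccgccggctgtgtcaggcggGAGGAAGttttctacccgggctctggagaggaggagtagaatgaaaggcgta
PU.1 is a transcription factor of the myeloid and B lineages, and the E-box is bound by MYC and by the lysosomal regulator TFEB among others. The letters describe the sequence and show no binding in these cells.

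**Figure D3:**
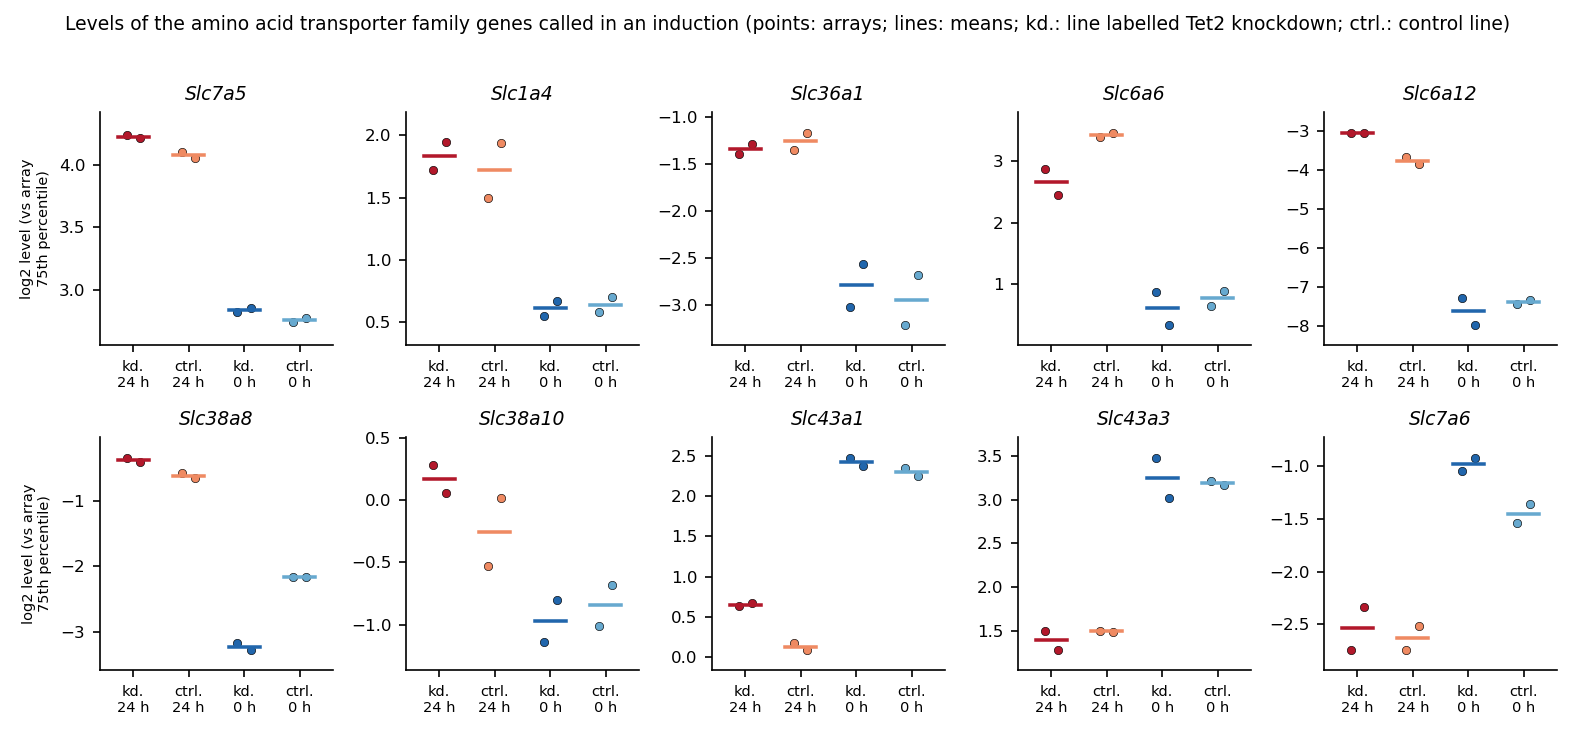
Log2 level relative to the array's 75th percentile of the 10 transporter genes called on induction, by group, with 1 point per array and a line at the group mean. Slc43a1, Slc43a3 and Slc7a6 are lower at 24 h. The genes were called on these same arrays, so the lack of overlap within each line is no separate support. Slc6a12 passed the filter through its 24 h arrays alone, and its 0 h signals lie below background.

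The cationic carriers Slc7a1 (CAT1) and Slc7a3 (CAT3) were not called. Slc7a1, which imports arginine and lysine, had levels of 4.37 and 4.39 in the knockdown-labelled line at 24 h, against 5.11 and 4.92 at 0 h. Control arrays gave 4.65 and 4.66 at 24 h, against 4.90 and 4.76 at 0 h. The log2 change was -0.63 ± 0.09 (adjusted p = 0.0013) in the knockdown-labelled line and -0.18 ± 0.09 (adjusted p = 0.14) in the control line. Slc7a3 had levels of 3.78 and 3.79 in the knockdown-labelled line at 24 h, against 3.70 and 3.69 at 0 h. Its control levels were 3.36 and 3.36 at 24 h, against 3.73 and 3.68 at 0 h. The log2 change was 0.09 ± 0.05 (adjusted p = 0.17) in the knockdown-labelled line, where its sign turned with the scaling of the arrays (-0.16 to 0.09), and -0.35 ± 0.05 (adjusted p = 0.002) in the control line.

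Of the sodium-dependent neutral exchangers, Slc1a4 rose and Slc1a5 was not called. Slc1a4 encodes ASCT1, which carries alanine, serine, cysteine and threonine. It had levels of 1.72 and 1.95 in the knockdown-labelled line at 24 h, against 0.55 and 0.67 at 0 h. Its levels in the control line were 1.50 and 1.94 at 24 h, against 0.58 and 0.70 at 0 h. No 24 h array overlapped a 0 h array, and the duplicates of the control line at 24 h lay farther apart than those of the other groups. It rose 2.34-fold in the knockdown-labelled line (log2 change 1.23 ± 0.17, adjusted p = 0.0011) and 2.11-fold in the control line (1.08 ± 0.17, adjusted p = 0.0022). The call was lost when arrays were scaled to their medians (0.98 in the knockdown-labelled line and 0.97 in the control line), and in the control line without 24 h array 2 (0.86).

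Slc1a5 encodes ASCT2, a main route of glutamine into many dividing cells. Its levels were 3.87 and 3.77 in the knockdown-labelled line at 24 h, against 4.24 and 4.18 at 0 h. They were 4.0 and 3.83 in the control line at 24 h, against 4.19 and 4.13 at 0 h. This is a log2 change of -0.39 ± 0.08 (adjusted p = 0.0077) in the knockdown-labelled line and -0.24 ± 0.08 (adjusted p = 0.046) in the control line, so the level at 24 h was lower at under 2-fold in both. A further probe gave similar values of -0.46 ± 0.12 and -0.29 ± 0.12 in the same order.

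The promoter of Slc1a4 (GRCm38.p6, chr11:20332664-20332963, minus strand, same window) is shown as that of a called gene with the C/EBP-ATF core TGATGNAA, the kind of site through which ATF4 acts on genes of the amino acid response. Capitals mark the match, which reads TTGCATCA on the printed strand and begins at base -4.
Slc1a4 promoter: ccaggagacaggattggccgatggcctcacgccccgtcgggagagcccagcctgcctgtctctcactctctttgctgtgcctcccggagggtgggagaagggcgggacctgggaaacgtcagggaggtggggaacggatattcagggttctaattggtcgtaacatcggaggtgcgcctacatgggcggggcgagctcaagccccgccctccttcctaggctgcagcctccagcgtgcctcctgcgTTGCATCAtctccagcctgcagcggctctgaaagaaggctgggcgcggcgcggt
Slc7a7 was the other transporter among those tested with this core in a promoter of the table. Over the 19 tested genes found in the RefSeq promoter table, which gave 32 promoters, the core was in 3 (9.38%), against 3.97% of all 32851 promoters, with both strands searched. The C/EBP site TTGCGNAA was in 0 of the 32, against 0.798% of all, which says only that these letters are not in these windows. The PU.1 core GAGGAAG was in 7 (21.9%), against 13.6% of all, and CACGTG in 4 (12.5%), against 7.15% of all. Several promoters belong to the same gene and overlap, so these shares are not counts of independent sites.

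In the Slc38 family of sodium-coupled neutral amino acid carriers, Slc38a8 rose in both lines and Slc38a10 in the knockdown-labelled line. Slc38a8, a glutamine carrier whose human gene is mutated in foveal hypoplasia, had levels of -0.34 and -0.41 in the knockdown-labelled line at 24 h, against -3.18 and -3.28 at 0 h. In the control line it had -0.58 and -0.65 at 24 h, against -2.17 and -2.17 at 0 h. The duplicates lay close together in each group, and no groups overlapped. Slc38a8 rose 7.27-fold in the knockdown-labelled line (log2 change 2.86 ± 0.07, adjusted p = 1.6e-06) and 2.93-fold in the control line (1.55 ± 0.07, adjusted p = 1.2e-05). It was measured by 1 probe, at chr8:122003505-122003564 in build mm9, and its RefSeq neighbours Necab2 and Mbtps1 were not called in either line.

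Slc38a10, a little studied member, had levels of 0.28 and 0.06 in the knockdown-labelled line at 24 h, against -1.14 and -0.80 at 0 h. Control arrays gave -0.53 and 0.02 at 24 h, against -1.01 and -0.68 at 0 h. The groups did not overlap within either line, though the control duplicates at 24 h lay apart. Its log2 change was 1.14 ± 0.23 (2.21-fold, adjusted p = 0.0064) in the knockdown-labelled line and 0.59 ± 0.23 (adjusted p = 0.074) in the control line. The difference between the lines' changes was 0.55 ± 0.33 (adjusted p = 0.31), so the lines are not shown to differ. The call was lost with median scaling (0.89) and without 0 h array 1 of the knockdown-labelled line (0.97).

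Slc38a1 and Slc38a2, the system A carriers SNAT1 and SNAT2 that concentrate glutamine and alanine, were not called. Slc38a2, a known target of amino acid starvation, had levels of 3.69 and 3.48 in the knockdown-labelled line at 24 h, against 3.74 and 3.72 at 0 h. The control line had 4.10 and 3.99 at 24 h, against 3.42 and 3.49 at 0 h. The log2 change was -0.14 ± 0.09 (adjusted p = 0.22) in the knockdown-labelled line and 0.59 ± 0.09 (adjusted p = 0.0022) in the control line. Slc38a1 had levels of 2.79 and 2.80 in the knockdown-labelled line at 24 h, against 3.24 and 3.17 at 0 h, and 3.12 and 3.05 in the control line at 24 h, against 3.20 and 3.11 at 0 h. This is a log2 change of -0.41 ± 0.06 (adjusted p = 0.0021) in the knockdown-labelled line and -0.07 ± 0.06 (adjusted p = 0.39) in the control line, where the groups overlapped. The other 2 probes of Slc38a1 gave -0.51 and -0.46 in the knockdown-labelled line and -0.07 each in the control line.

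Among carriers of the lysosome, Slc36a1 rose and Slc38a9 was not called. Slc36a1 encodes PAT1, which moves small neutral amino acids with protons. It had levels of -1.40 and -1.29 in the knockdown-labelled line at 24 h, against -3.02 and -2.56 at 0 h. In the control line it had -1.35 and -1.17 at 24 h, against -3.21 and -2.68 at 0 h. All 24 h arrays stood above all 0 h arrays. It rose 2.72-fold in the knockdown-labelled line (log2 change 1.44 ± 0.23, adjusted p = 0.0022) and 3.22-fold in the control line (1.69 ± 0.23, adjusted p = 0.0012). In the authors' deposited table the change in the knockdown-labelled line was 0.93, under 2-fold. A dimmer probe of the gene was not called, with 0.73 ± 0.32 (adjusted p = 0.09) in the knockdown-labelled line and 0.43 ± 0.32 (adjusted p = 0.29) in the control line.

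The promoter of Slc36a1 (GRCm38.p6, chr11:55204090-55204389, plus strand, same window) is shown because it held an E-box. Of the 7 members called higher, 5 had promoters in the table, and Slc36a1 was the one of these 5 with that motif. Capitals mark CACGTG at bases -31 and -3.
Slc36a1 promoter: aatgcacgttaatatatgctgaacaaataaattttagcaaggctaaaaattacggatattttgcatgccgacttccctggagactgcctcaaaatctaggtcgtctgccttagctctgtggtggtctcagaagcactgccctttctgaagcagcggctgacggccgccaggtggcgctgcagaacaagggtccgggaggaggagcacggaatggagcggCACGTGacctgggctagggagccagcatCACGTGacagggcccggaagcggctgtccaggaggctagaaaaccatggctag
The letters describe the sequence, and binding was not measured. Whether the motif has a part in the rise of Slc36a1 was not tested. The same motif was in the promoter of Slc43a1, which fell, and in those of Slc38a7 and Slc6a16, which were not called.

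Slc38a9, the lysosomal arginine sensor of mTORC1, had levels of -1.07 and -1.03 in the knockdown-labelled line at 24 h, against -1.17 and -1.17 at 0 h. Its control levels were -1.14 and -1.15 at 24 h, against -1.07 and -1.12 at 0 h. The log2 change was 0.12 ± 0.05 (adjusted p = 0.09) in the knockdown-labelled line, with a sign that turned with the scaling (-0.13 to 0.16), and -0.05 ± 0.05 (adjusted p = 0.43) in the control line. Its probes disagreed. A probe at chr13:113528693-113528752 in build mm9 stood above background on no 24 h array and on every 0 h array, with signals of -5.40 and -5.50 at 24 h against -4.17 and -4.14 at 0 h in the knockdown-labelled line, and -5.28 and -4.93 at 24 h against -4.09 and -4.19 at 0 h in the control line. The remaining probe was not called (0.07 ± 0.11 and -0.07 ± 0.11). For the mean of its kept probes the log2 change of Slc38a9 was -0.37 (adjusted p = 0.0098) in the knockdown-labelled line and -0.36 (adjusted p = 0.011) in the control line. This mean holds the probe kept through its 0 h arrays alone, which had to be lower at 24 h, so it is given as a description. Slc38a7, known in human cells to export glutamine from lysosomes, was higher at 24 h at under 2-fold in the knockdown-labelled line (0.72 ± 0.08, adjusted p = 4.1e-04) and in the control line (0.46 ± 0.08, adjusted p = 0.0031). Slc38a6, whose substrates are less well known, gave 0.70 ± 0.17 (adjusted p = 0.013) in the knockdown-labelled line and 0.73 ± 0.17 (adjusted p = 0.012) in the control line.

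The Slc6 family carries neurotransmitters, osmolytes and amino acids with sodium and chloride, and its carriers of taurine and of betaine rose. Slc6a6, the taurine transporter, had levels of 2.88 and 2.46 in the knockdown-labelled line at 24 h, against 0.88 and 0.34 at 0 h. In the control line it had 3.40 and 3.47 at 24 h, against 0.65 and 0.89 at 0 h. The 24 h arrays of both lines stood above all 0 h arrays. Slc6a6 rose 4.18-fold in the knockdown-labelled line (log2 change 2.06 ± 0.22, adjusted p = 4.5e-04) and 6.34-fold in the control line (2.66 ± 0.22, adjusted p = 1.8e-04).

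Slc6a12, the betaine and GABA transporter, stood above background at 24 h and on no 0 h array. Its levels at 24 h were -3.06 and -3.05 in the knockdown-labelled line and -3.68 and -3.86 in the control line. The measured 0 h signals were -7.27 and -7.96 in the knockdown-labelled line and -7.42 and -7.32 in the control line, below background in each case. Against the lowest signal that counts as above background, it was at least 5.5-fold higher at 24 h in the knockdown-labelled line (adjusted p = 1.9e-05) and at least 2.94-fold higher in the control line (adjusted p = 5.2e-05). These p-values rest on 0 h signals below background, and a gene that passed the filter through 1 time alone had to differ, so the bounds are given as a description. The fitted log2 change is no measure of size here, since over 5 ways of background correction and scaling it ran from 1.30 to 4.56 in the knockdown-labelled line and from 1.02 to 3.60 in the control line.

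Of the other Slc6 genes, the creatine transporter Slc6a8 came nearest to the threshold. Its levels were 0.07 and 0.03 in the knockdown-labelled line at 24 h, against -0.85 and -1.05 at 0 h, and 0.05 and -0.03 in the control line at 24 h, against -0.68 and -0.76 at 0 h. The log2 change of 1.00 ± 0.09 (adjusted p = 1.7e-04) in the knockdown-labelled line fell short of 2-fold before rounding, and that in the control line was 0.73 ± 0.09 (adjusted p = 6.8e-04). The glycine transporter Slc6a9 had log2 changes of 0.01 ± 0.06 and -0.12 ± 0.06 in the same order, with the sign in the knockdown-labelled line turning with the scaling (-0.24 to 0.01). Slc6a20a, the carrier of proline and other imino acids, and Slc6a16, whose substrate is not known, gave no usable value. Their standard errors were 0.43 and 0.51, and duplicates of Slc6a20a in the knockdown-labelled line at 0 h were at -3.97 and -2.82.

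The lines were compared at each time, and the counts of calls are too small to tell the members from all genes. At 0 h Slc38a8 alone of the 26 genes was called, lower in the knockdown-labelled line, against 1.73% of all genes called in either direction. Its levels were -3.18 and -3.28 in the knockdown-labelled line and -2.17 and -2.17 in the control line, which is 47.9% (log2 difference -1.06 ± 0.07, adjusted p = 0.0017). The call was lost with normexp correction (-0.78, adjusted p = 0.0098), with median scaling (-0.99, adjusted p = 0.069) and in the authors' deposited table (-0.69, adjusted p = 0.0043), where the difference kept its sign. At 24 h limma called 0 of the 26 genes, against 2.04% of all genes, with 12 of the 26 at an unadjusted p under 0.05 and any fold, where 31.3% of all genes were. The log2 difference of Slc38a8 at 24 h was 0.25 ± 0.07 (adjusted p = 0.065).

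**Figure D4:**
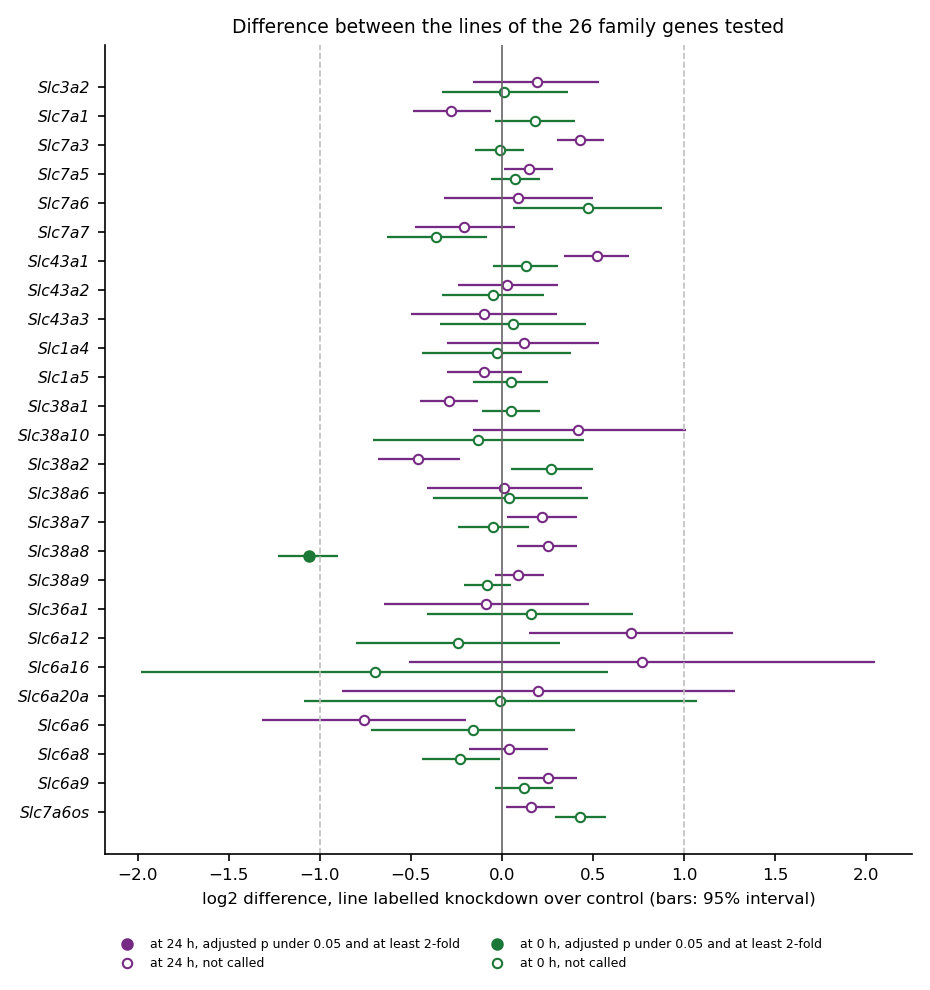
Log2 difference between the lines, knockdown-labelled over control, of the 26 genes tested at 24 h (purple, above) and 0 h (green, below), with 95% confidence intervals. Slc38a8 at 0 h, at -1.06, is the one filled point, which marks an adjusted p under 0.05 and at least 2-fold.

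Without a minimum fold, 4 of the 26 genes differed between the lines at 24 h at an adjusted p under 0.05, where 13.8% of all genes did. Slc7a3 (0.43 ± 0.05, adjusted p = 0.0087) and Slc43a1 (0.52 ± 0.07, adjusted p = 0.012) were higher in the knockdown-labelled line, and Slc38a1 (-0.29 ± 0.06, adjusted p = 0.041) and Slc38a2 (-0.46 ± 0.09, adjusted p = 0.031) were lower. Over 5 ways of background correction and scaling, the difference passed the adjusted p in 2 for Slc38a1 and in 4 each for Slc7a3, Slc43a1 and Slc38a2. Further probes of Slc38a1 gave -0.43 (adjusted p = 0.037) and -0.21 (adjusted p = 0.11). At 0 h, besides Slc38a8, Slc7a6os was higher (0.43 ± 0.06, adjusted p = 0.0098), where 13.5% of all genes passed. Slc6a6 was at 2.88 and 2.46 in the knockdown-labelled line and 3.40 and 3.47 in the control line at 24 h, and its difference of -0.76 ± 0.22 did not pass (adjusted p = 0.082).

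The change on induction was set against itself in the 2 lines by the interaction term, the log2 change in the knockdown-labelled line minus that in the control line. Slc38a8 was called, with a larger rise in the knockdown-labelled line (1.31 ± 0.09, adjusted p = 0.0031), against 3.82% of all genes called in either direction. The value was 1.26 on slide 1 and 1.36 on slide 2. Its call was lost with median scaling (1.17, adjusted p = 0.13) and in the authors' deposited table (0.92, adjusted p = 0.0052). As the values of Slc38a8 by group show, the lines lay farther apart at 0 h than at 24 h.

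At under 2-fold, Slc7a3 and Slc38a2 also passed the adjusted p, where 16.3% of all genes did. The difference was 0.44 ± 0.07 (adjusted p = 0.019) for Slc7a3 and -0.73 ± 0.13 (adjusted p = 0.021) for Slc38a2. For Slc38a2 the 24 h arrays stood above the 0 h arrays in the control line and lay below them in the knockdown-labelled line. Over the 5 ways of background correction and scaling the difference passed the adjusted p in 4 for Slc38a2 (-0.87 to -0.72) and in 2 for Slc7a3 (0.30 to 0.44). Slc7a1 (-0.46 ± 0.12, adjusted p = 0.063), Slc38a1 (-0.34 ± 0.09, adjusted p = 0.06) and Slc43a1 (0.39 ± 0.10, adjusted p = 0.057) did not pass.

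**Figure D5:**
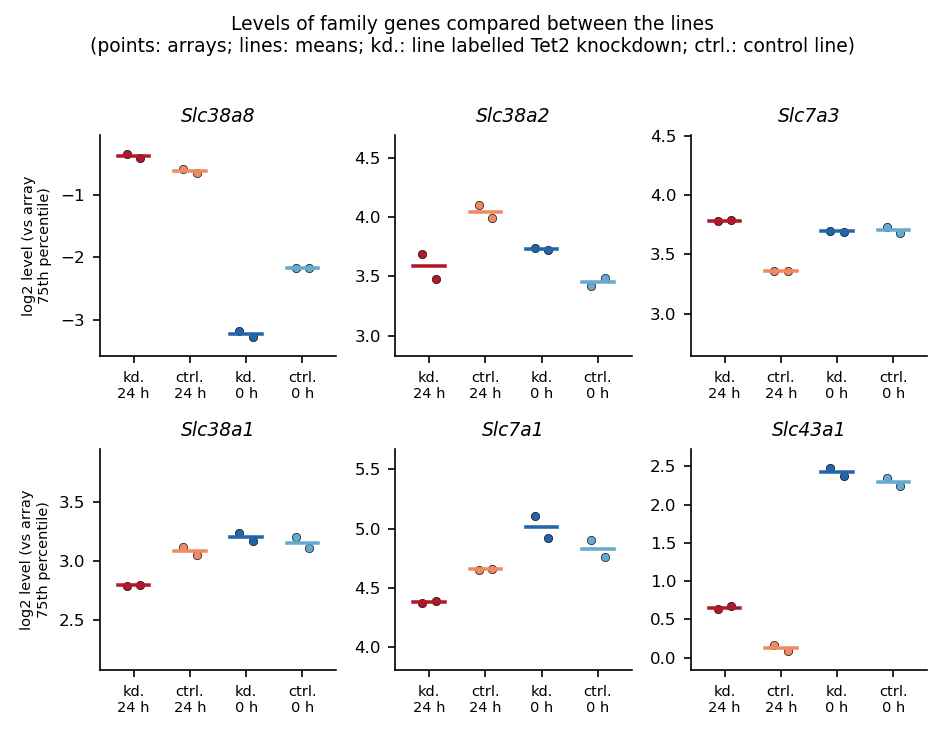
Log2 level relative to the array's 75th percentile, by group, of 6 transporter genes compared between the lines, with 1 point per array and a line at the group mean. Slc38a8 lies at -3.18 and -3.28 in the knockdown-labelled line at 0 h, below both control arrays at -2.17.

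Genes that work with these transporters were counted by list, against all genes tested, of which 16.7% were called higher and 15.4% lower in the knockdown-labelled line (median log2 change 0.14) and 14.2% and 13.1% in the control line (median 0). Of 22 other amino acid and peptide carriers 14 were tested, and 5 were called higher and 1 lower in the knockdown-labelled line, against 6 and 1 in the control line. Slc15a3, a lysosomal carrier of histidine and small peptides, rose in the knockdown-labelled line (log2 change 3.19 ± 0.08, adjusted p = 2.2e-06) and in the control line (3.41 ± 0.08, adjusted p = 2.3e-06). The lysosomal exporter of cystine, Ctns, and that of cationic amino acids, Slc66a1, were named after their values were seen. Their log2 changes were 2.04 and 2.02 in the knockdown-labelled line and 1.43 and 1.90 in the control line, all called. Slc15a4 and Mfsd12 of the same list, also named with their values seen, were not called in either line. They gave 0.85 and 0.50 in the knockdown-labelled line and 0.24 and -0.04 in the control line, where Mfsd12 was below background at 24 h. Slc25a13, the mitochondrial aspartate and glutamate exchanger citrin, fell in the knockdown-labelled line (-1.48 ± 0.07, adjusted p = 1.3e-05) and in the control line (-1.52 ± 0.07, adjusted p = 1.4e-05). The median log2 change of the 14 was 0.61 in the knockdown-labelled line, against 0.14 over all genes, and 0.80 in the control line, against 0. The share called higher was 35.7% of the 14 in the knockdown-labelled line, against 16.7% of all genes, and 42.9% in the control line, against 14.2%.

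Slc7a11, the cystine light chain that pairs with CD98, rose in both lines. Its log2 change was 1.05 ± 0.23 (adjusted p = 0.0088) in the knockdown-labelled line, and it was at least 9.14-fold higher in the control line (adjusted p = 6.5e-05), where no 0 h array stood above background. At 24 h, where every array stood above background, Slc7a11 was called lower in the knockdown-labelled line than in the control line (log2 difference -1.17 ± 0.23, adjusted p = 0.03). At 0 h it was at least 1.96-fold higher in the knockdown-labelled line, against control arrays below background. The fitted difference between the inductions was -2.47 ± 0.33 (adjusted p = 0.012), a value whose size rests on the dim control arrays at 0 h. The mitochondrial ornithine carrier Slc25a15 was the other gene of the list called in that contrast (-1.93).

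In the amino acid response, 21 of 22 genes were tested, and 7 were called higher and 1 lower in the knockdown-labelled line, against 6 and none in the control line. The median log2 change was 0.24 in the knockdown-labelled line and 0.27 in the control line, and 33.3% and 28.6% of the list were called higher, against 16.7% and 14.2% of all genes. Cebpb, a C/EBP factor of stress and myeloid cells, rose 8.59-fold (adjusted p = 1e-06) in the knockdown-labelled line and 8.09-fold (adjusted p = 1.4e-06) in the control line. Ddit4, an mTORC1 inhibitor, rose by 1.44 ± 0.37 on the log2 scale (adjusted p = 0.016) in the knockdown-labelled line and 2.67 ± 0.37 (adjusted p = 0.0014) in the control line. Atf4, the central factor of this response, was not called in either line. It was lower at 24 h at under 2-fold in the knockdown-labelled line (-0.33, adjusted p = 0.0025) and in the control line (-0.67, adjusted p = 1.4e-04). Its target Asns, the asparagine synthetase, was not called either (-0.02 and -0.27 in the same order). Besides Cebpb and Ddit4, the genes Eif2ak2, Chac1, Atf3 and Sesn2 were called higher in both lines. Their log2 changes were 2.67, 1.79, 1.71 and 1.57 in the knockdown-labelled line and 2.16, 1.30, 1.16 and 1.61 in the control line. In the knockdown-labelled line alone, Atf5 was called higher (1.46) and Eif2s1 lower (-1.10). All genes of this list but Cebpb and Ddit4 are named here after their values were seen.

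Of the genes for amino acid sensing by mTORC1, 31 of 33 were tested, with 6 called higher (19.4%) and 1 lower in each line and medians of 0.10 in the knockdown-labelled line and 0.06 in the control line. Lamtor4, a subunit of the Ragulator scaffold on lysosomes, rose by 2.63 ± 0.07 on the log2 scale (adjusted p = 3e-06) in the knockdown-labelled line and 2.26 ± 0.07 (adjusted p = 5.6e-06) in the control line. Castor2, a relative of the arginine sensor Castor1, rose by 2.08 ± 0.06 on the log2 scale (adjusted p = 3.4e-06) in the knockdown-labelled line and 2.42 ± 0.06 (adjusted p = 2.7e-06) in the control line. The GTPase gene Rragb, the 1 called lower, stood above background on every 0 h array and on no 24 h array. Against the lowest signal that counts as above background, it was at least 3.26-fold lower at 24 h in the knockdown-labelled line. In the control line it was at least 1.87-fold lower. A gene that passed the filter through its 0 h arrays alone had to be lower at 24 h, so these bounds are given as a description.

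Of 34 enzymes of amino acid metabolism 29 were tested. In the knockdown-labelled line 2 were called higher and 4 lower, with a median log2 change of -0.23, against a median of 0.14 over all genes. The control line had 1 called higher and 5 lower, with a median of -0.42, against 0 over all genes. The 4 and 5 called lower are 13.8% and 17.2% of the list, near the 15.4% and 13.1% of all genes called lower. Shmt1, which interconverts serine and glycine in the cytosol, fell in the knockdown-labelled line (log2 change -4.52 ± 0.36, adjusted p = 0.00013) and in the control line (-3.30 ± 0.36, adjusted p = 0.00053). Ddc, the aromatic amino acid decarboxylase, fell by 1.53 ± 0.11 on the log2 scale (adjusted p = 9.5e-05) in the knockdown-labelled line and by 2.13 ± 0.11 (adjusted p = 3e-05) in the control line. Asl, which releases arginine from argininosuccinate, rose by 1.33 ± 0.06 on the log2 scale (adjusted p = 1.8e-05) in the knockdown-labelled line and 1.15 ± 0.06 (adjusted p = 3.5e-05) in the control line.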

How the data were processed

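Total RNA (500 ng per sample) was labelled with Cy3 and hybridised to 1-colour Agilent mouse arrays of design 026655 (build mm9), per the labels and the file headers. The deposited scanner files, extracted with Feature Extraction 10.7.3.1, hold each spot's intensity as a background-subtracted processed signal beside raw mean and background intensities, per the file headers. The deposited table of the authors holds log2 values with the same median (6.84) on every array. The submitters' processing notes name limma with no settings. The table correlated at 0.999999 or more with log2 values recomputed by normexp (offset 50) and quantile normalization.

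Each array had 43020 probe spots, of which 47.4% to 55.6% were well above background, and 155 to 219 outlier spots were left out. No spot was saturated. The number of arrays limits the precision. Values were log2 of the processed signal minus that of the 75th percentile of all non-control spots on the array. Kept were 20306 probes marked well above background on each array of 1 or more groups, and each gene was read from its probe of highest mean. Member genes keep the names of the array files, and other probes took RefSeq names where their accession, symbol or synonym matched. One model of 4 group means over all 8 arrays was fitted with limma 3.58.1 in R 4.3.3, with 4 residual and 1.51 prior degrees of freedom, and 5 contrasts were taken. All tests were 2-sided with Benjamini-Hochberg adjustment over 16153 genes. The fit was tested on simulated data. Where no array of a group was well above background, a fold is a bound against the lowest signal so marked.

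Replicate number is also the slide, per the file headers, and each slide held all 4 groups. Deviations of same-numbered arrays from their group means correlated at 0.30 to 0.41 for every pair of groups, so the numbers pair the arrays, and the blocked fit was an alternative. Other alternatives were 2 scalings, normexp correction, the authors' table, 2 filters, the mean of probes, no fold minimum, values within slides and leaving out each array. Named by rule were members called in any contrast and 17 fixed members, 4 of which did not pass the filter. So were up to 2 genes each way per list by the control induction. The other members and list genes described singly, such as Slc7a3 and Slc25a15, were named outside this rule with their values known. The members, lists, markers and motifs were chosen with earlier results of these data known. Promoters are RefSeq's (GRCm38.p6) for 43 of 61 genes, and probe coordinates are mm9. The 2 builds were not mixed. Values of 1 member that did not pass the filter are not reported here.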

Additional observations from a re-analysis of the deposited data

Results flagged for a closer look

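The induction of 3 of the 26 genes differed between the lines by the interaction test at an adjusted p under 0.05, where 16.3% of all genes did. For Slc38a8 the log2 change in the knockdown-labelled line exceeded that in the control line by 1.31 (adjusted p = 0.0031), with 1.26 on slide 1 and 1.36 on slide 2. For Slc7a3 the difference was 0.44 (adjusted p = 0.019), under 2-fold. For Slc38a2 it was -0.73 (adjusted p = 0.021), under 2-fold as well. No reason for these differences was tested.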

How the results depend on the processing

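Of the 90 values of the tested members named by rule (18 genes in 5 contrasts, without Slc7a3 and others named outside it), 22 turned sign in at least 1 alternative. All 22 were at 0.24 or less in size on the log2 scale, and 0 of them were called or passed the adjusted p. Of these, Slc38a9 on the knockdown-labelled induction (0.12) passed the adjusted p with the other sign for the mean of its probes (-0.37, adjusted p = 0.0098). That mean holds a probe kept through its 0 h arrays alone, which had to be lower at 24 h. The p-value is thus no test of the sign. With the replicate block, every count and each of the 90 calls was the same as without it. Without a fold minimum, the knockdown-labelled induction had 13 higher and 7 lower, the control induction 13 higher and 6 lower, and the lines differed in 4 at 24 h, 2 at 0 h and 3 in the interaction. The single call at 0 h became 0 with normexp, median scaling and the authors' table, and the single call of the interaction 0 with median scaling and the authors' table. Leaving out 1 array gave 7 to 9 higher and 3 to 3 lower in the knockdown-labelled line, 5 to 7 and 3 to 3 in the control line, 0 to 0 at 24 h, 1 to 1 at 0 h, and 1 to 2 in the interaction. The value of 2 came without 0 h array 1 of the knockdown-labelled line and added Slc6a12 (fitted 1.30, adjusted p = 0.023, with both 0 h groups below background). Single calls were lost for 5 values with median scaling, 4 with the authors' table, 2 with normexp, 1 with the mean of probes and 2 without 1 array, and 4 were gained without 1 array. The cause was not tested. Requiring signal above background on all arrays left Slc6a12 out. With median scaling, all genes together had a median of -0.11 in both inductions, so the split over all genes in the knockdown-labelled line was 2172 higher and 3386 lower, against 2700 and 2494.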
